A study of Mus musculus with 4 samples.

Results

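The genes described here are 8 genes of cholesterol synthesis measured in mouse skin: Hmgcs1, Idi1, Fdft1, Sqle, Lss, Cyp51 and Dhcr7, which encode enzymes of the pathway, and Insig1, which encodes its sterol-sensing brake. They were taken by name from the array annotation, and all 8 of 8 were found among 18193 genes. Where a gene had several probe sets, the one whose log2 signals averaged highest stands for it. The members hold no uptake receptor, so cholesterol uptake is described from a separate list of 8 measured genes.

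Expression was read on 3′ arrays, 2 of them of skin that had received the vehicle ethanol (Control) and 2 from skin that had received MC903 (calcipotriol, a synthetic relative of active vitamin D, used to provoke skin inflammation). Both groups were wild-type female BALB/c mice, and both had first had ovalbumin together with MC903 put on the ear skin, so the Control mice had met MC903 too. All were then given ovalbumin by mouth, treated on the skin with MC903 or ethanol, and challenged by mouth again, after which RNA was taken from the treated skin. Whether an array stands for 1 animal or a pool is not stated. The p-values therefore rest on the spread among the 4 samples as labelled, and that spread could be technical. The comparison asks what MC903, set against its vehicle, did to the transcripts of skin in sensitised mice.

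Cells build cholesterol from acetyl units through mevalonate, isoprenoids, squalene and lanosterol. When sterols in the endoplasmic reticulum run low, the escort protein Scap carries SREBP transcription factors to the Golgi, where the proteases encoded by Mbtps1 and Mbtps2 release them to switch on the pathway's genes, and Insig proteins hold Scap back when sterols are plentiful. Epidermis makes much of its own cholesterol, which with ceramides and fatty acids forms the lipid layers between cornified cells. The pathway also touches vitamin D, since its last intermediate, dehydrocholesterol, is what ultraviolet light turns into vitamin D in skin.

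The promoters are shown because these genes are a textbook set of SREBP targets, and SREBP proteins bind together with the factor NF-Y, which recognises CCAAT. The RefSeq promoter table (GRCm38.p6; 250 bases before to 50 bases after each annotated start) held 6 of the 8 members. CCAAT, read on both strands, was found in 6 of these 6, against 41.1% of the 27025 genes in the table. The GC box GGGCGG was also found in 6 of 6, against 38.2%. The sterol regulatory element core TCACNCCAC was found in 1 of 6, Hmgcs1, against 1.44% of genes, and the E-box CACGTG in 2 of 6 (Insig1 and, at a start not shown, Dhcr7), against 8.09%. Of the 15 other synthesis enzymes listed further below, the promoter table held 12. Among these, CCAAT was found in 11, the GC box in 10, the E-box in 2 and the sterol element core in 0. A match describes the letters and is not a measured binding site. The stretches below run 5′ to 3′ on the gene's strand and end before the annotated start. Capitals mark CCAAT, which reads ATTGG where it lies on the other strand, the sterol element core and the E-box, which do not overlap one another in these stretches.
Hmgcs1: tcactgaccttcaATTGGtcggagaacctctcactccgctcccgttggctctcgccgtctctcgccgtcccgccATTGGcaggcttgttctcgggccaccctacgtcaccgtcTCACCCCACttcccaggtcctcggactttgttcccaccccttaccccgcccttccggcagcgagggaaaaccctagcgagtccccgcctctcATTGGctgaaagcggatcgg
Idi1: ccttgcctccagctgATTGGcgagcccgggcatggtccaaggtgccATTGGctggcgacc
Lss: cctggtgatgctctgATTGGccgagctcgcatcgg
Cyp51: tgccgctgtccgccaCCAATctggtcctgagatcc
Dhcr7: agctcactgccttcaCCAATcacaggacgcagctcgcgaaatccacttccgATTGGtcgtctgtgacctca
Insig1: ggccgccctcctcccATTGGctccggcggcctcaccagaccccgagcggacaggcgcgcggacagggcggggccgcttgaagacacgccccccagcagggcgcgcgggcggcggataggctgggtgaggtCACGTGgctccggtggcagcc

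The Hmgcs1 stretch lies at chr13:119690101-119690325 on the plus strand and holds 3 CCAAT boxes and, as TCACCCCAC, the sterol element core, whose first base is at -137 from the start. Idi1, at chr13:8885546-8885605 on the plus strand, has CCAAT boxes beginning at -45 and -14. The single box of Lss (chr10:76531528-76531562, plus strand) begins at -62, and that of Cyp51 (chr5:4104707-4104741, minus strand) at -29. Dhcr7 has 3 annotated starts. The stretch shown (chr7:143830114-143830184, plus strand) belongs to the only one with CCAAT in its window, with boxes at -85 and -49. Insig1 (chr5:28071181-28071331, plus strand) has its CCAAT at -216 and its E-box at -101.

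**Figure D1:**
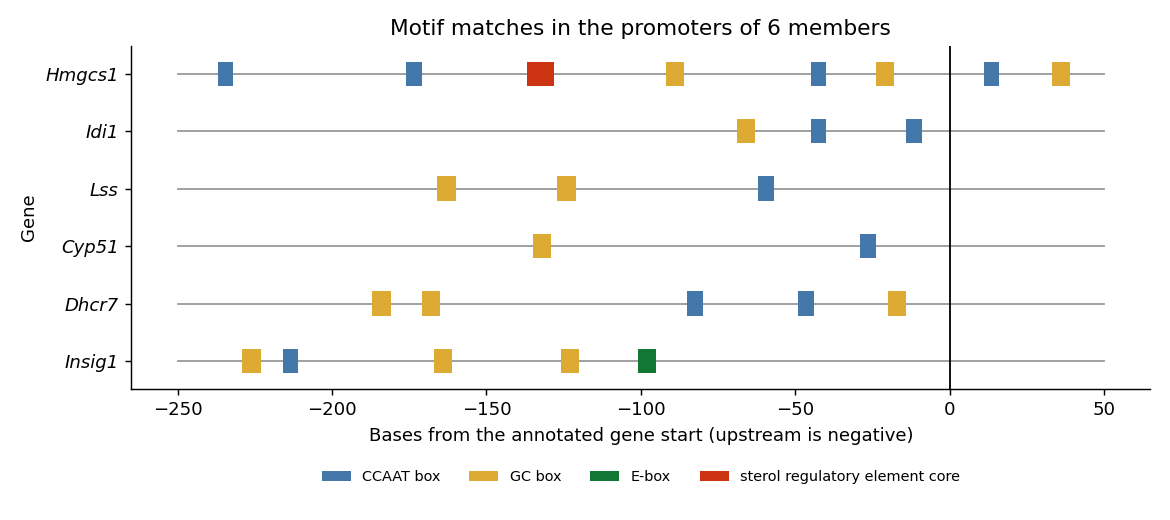
Positions of motif matches from 250 bases before to 50 bases after the annotated start of 6 members (x axis in bases, upstream negative; 1 line a gene; for Dhcr7 the start whose window holds CCAAT). Every line has at least 1 CCAAT box upstream of the start, and the sterol element core appears on the Hmgcs1 line alone.

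Across the 8 members the MC903 and Control arrays were not told apart. The log2 differences, MC903 minus Control on the log2(signal + 16) scale, ran from -0.023 for Dhcr7 to 0.42 for Sqle, with a median of 0.17 against -0.037 over all genes. limma with a constant prior variance called 0 of the 8 at an adjusted p below 0.05, where it called 0 genes in all (0% of 18193), and 0 of 8 had an unadjusted p below 0.05, against 15.2% of all genes. With a prior variance that follows the signal it also called 0 of 8, against 0.923% of all genes (0.539% higher, 0.385% lower). Only 1 of 8 members, Sqle, had both MC903 arrays on the same side of both Control arrays, against 49.7% of all genes. Between the MC903 arrays, replicate 2 lay above replicate 1 for 8 of 8 members, against 51.9% of all genes.

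Hmgcs1 encodes the synthase that makes hydroxymethylglutaryl-CoA, the entry to the mevalonate pathway. Its signals were 21088 and 20297 in Control and 17268 and 24614 in MC903. The MC903 arrays stood on either side of the Control pair, so the groups overlapped. The log2 difference was -0.0051 ± 0.23 (SE, n = 2 per group; limma, adjusted p = 0.994), with a 95% interval from -0.63 to 0.62.

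Idi1, the isomerase that readies isopentenyl units for chain building, had signals of 5174 and 4582 in Control and 4213 and 7871 in MC903. MC903 replicate 1 was the lowest of the 4 arrays and replicate 2 the highest. The difference was 0.24 ± 0.35 (SE, n = 2 per group; limma, adjusted p = 0.773), and its 95% interval ran from -0.69 to 1.17.

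Fdft1 encodes squalene synthase, the step that commits isoprenoids to sterols. Control signals were 4615 and 5378, and MC903 signals were 4617 and 6303. MC903 replicate 1 was thus almost level with Control replicate 1, and replicate 2 was above both. The difference of 0.11 ± 0.23 (SE, n = 2 per group; limma, adjusted p = 0.838) had a 95% interval from -0.50 to 0.72.

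Sqle, squalene epoxidase, a rate-limiting step of the sterol branch, was the member whose groups did not overlap. It had signals of 5135 and 5238 in Control and 5972 and 8024 in MC903. Both MC903 arrays were above both Control arrays, and the 2 Control arrays were almost level. No other probe set was named for Sqle, so this order could not be compared with another. The difference of 0.42 ± 0.21 (SE, n = 2 per group) was not called (limma, adjusted p = 0.427), and its 95% interval ran from -0.15 to 0.98, that is, from 0.904-fold to 1.97-fold. Against the Control mean, MC903 replicate 1 stood at 0.20 and replicate 2 at 0.63, so the size rests on which array is read.

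Lss, lanosterol synthase, which folds squalene epoxide into the first sterol ring system, had signals of 1388 and 1831 in Control and 1455 and 2384 in MC903. The groups overlapped, and the Control arrays themselves were 0.40 apart on the log2 scale. The difference was 0.22 ± 0.31 (SE, n = 2 per group; limma, adjusted p = 0.769), with a 95% interval from -0.62 to 1.07. As for some other members, the direction of Lss depended on the probe set. Its chosen probe set bears the suffix s, which marks probes shared by several transcripts, and another, without that suffix, had signals of 1514 and 2034 in Control and 884 and 1636 in MC903, a difference of -0.54.

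Cyp51 encodes the demethylase that takes lanosterol on towards cholesterol. It stood at 3748 and 4321 in Control and at 3588 and 6687 in MC903. As for Idi1, the MC903 arrays were the lowest and the highest of the 4. The difference was 0.28 ± 0.35 (SE, n = 2 per group; limma, adjusted p = 0.733), with the widest 95% interval of the members by its upper end, from -0.65 to 1.22.

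Dhcr7 encodes the reductase that turns dehydrocholesterol, the vitamin D precursor, into cholesterol. Signals were 2036 and 2265 in Control and 1754 and 2546 in MC903, again with the MC903 arrays outside the Control pair on either side. The difference was -0.023 ± 0.24 (SE, n = 2 per group; limma, adjusted p = 0.975), with a 95% interval from -0.67 to 0.63.

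Insig1, the SREBP target that retains Scap in the endoplasmic reticulum and so closes the feedback loop, had signals of 1257 and 1372 in Control and 1142 and 1705 in MC903. Here too the MC903 arrays were the lowest and the highest. Its difference was 0.087 ± 0.25 (SE, n = 2 per group; limma, adjusted p = 0.893), and the 95% interval ran from -0.58 to 0.76.

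Over the 8 members, the intervals reached down to 0.62-fold (Idi1) and up to 2.32-fold (Cyp51), and differences within each gene's own interval were not excluded. With 4 arrays, 0.333 is the smallest two-sided p that an exact permutation test can return. None of the 8 was at least 2-fold apart whichever MC903 array was set against whichever Control array (4 pairings), a rule met by 1.97% of all genes.

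**Figure D2:**
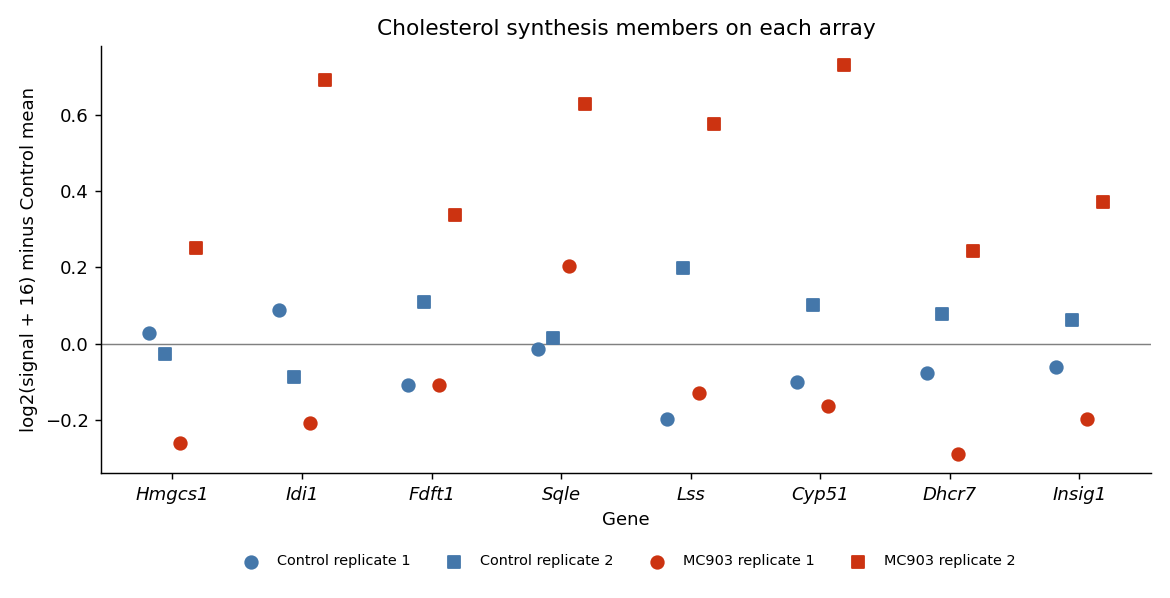
log2(signal + 16) of each member on each array, minus the mean of its 2 Control arrays (y axis, log2 units; circles replicate 1, squares replicate 2; blue Control, red MC903). MC903 replicate 2 is the highest array for all 8 members, from 0.24 above the Control mean for Dhcr7 to 0.73 for Cyp51. MC903 replicate 1 is the lowest for 5 of them, and 8.11% of all genes have this pattern on both arrays. Shares of all genes for either array alone are not given here.

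For each member the gap between the MC903 arrays was larger than the group difference, only slightly so for Sqle (0.43 against 0.42). A gap between 2 single arrays varies more than a difference of group means, so the like comparison is with the gap between the Control arrays. MC903 replicate 2 exceeded replicate 1 by 0.43 (Sqle) to 0.90 (Idi1 and Cyp51), with a median of 0.55, while Control replicate 2 minus Control replicate 1 ran from -0.17 (Idi1) to 0.40 (Lss), with a median of 0.14. Control replicate 2 was above Control replicate 1 for 6 of 8 members, against 49.45% of all genes, whose median gap was -0.0034. Over all genes the median gap between the MC903 arrays was 0.018, and 51.9% of genes were higher on MC903 replicate 2. A gap of at least 0.43 in that direction was found in 17.9% of all genes, and in 9.85% of the 3422 genes at least as bright as the dimmest member. Each array is 1 sample, so this gap has no replicate and no test.

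For 5 of 8 members (Hmgcs1, Idi1, Cyp51, Dhcr7 and Insig1) MC903 replicate 1 was below and replicate 2 above both Control arrays, a pattern found in 8.11% of all genes. Read against the Control mean, MC903 replicate 1 alone gave values from -0.29 (Dhcr7) to 0.20 (Sqle), with a median of -0.18. MC903 replicate 2 alone gave 0.24 (Dhcr7) to 0.73 (Cyp51), with a median of 0.47. Each of these is also the difference with the other MC903 array left out. Over all genes the medians on MC903 replicates 1 and 2 were -0.054 and -0.025, and shares of all genes by sign are not given here.

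The brighter probe sets of the members showed the same order of the MC903 arrays. The 8 genes had 20 probe sets, of which 17 had a mean signal above 100. On all 17, MC903 replicate 2 was above replicate 1, though probe sets of a gene share its RNA and are no replicates. Among the 3 dimmer ones, a probe set of Fdft1 had the opposite order, with MC903 signals of 31.6 and 7.55. On 16 of the 17 the groups overlapped, and the difference was above 0 for 10 and below 0 for 7. Shares over all probe sets are not given here. On the chosen probe sets the groups did not overlap for 49.7% of all genes. Among 5 probe sets of Hmgcs1 it ran from -0.19 to 0.085, and the 3 of Cyp51 gave -0.022 to 0.28. Another probe set of Idi1 gave -0.040, with signals of 2263 and 2615 in Control and 1602 and 3494 in MC903. For Hmgcs1 and Fdft1 the chosen probe set bears the suffix x, which marks possible cross-hybridisation. Their brightest probe sets without it gave -0.15 (signals of 20649 and 19671 in Control and 14773 and 22323 in MC903) and 0.28 (4124 and 4856 in Control, 4705 and 6282 in MC903).

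**Figure D3:**
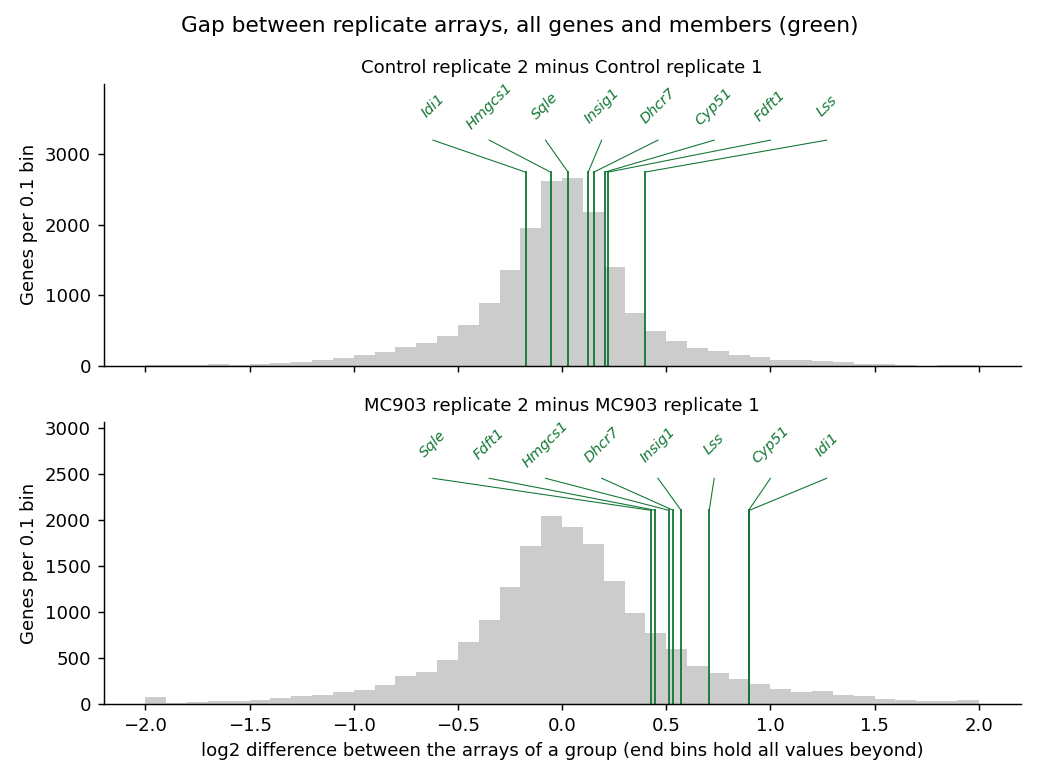
Histograms over 18193 genes of the log2 gap between the 2 Control arrays (top) and the 2 MC903 arrays (bottom), in bins of 0.1, with green lines at the 8 members. In the Control panel the members lie from -0.17 to 0.40, with 6 of 8 above 0 (49.45% of all genes). In the MC903 panel all lie from 0.43 to 0.90 (51.9% of all genes are above 0).

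Marker lists of other skin cells also differed between the MC903 arrays, and their part in the members' gap was not tested. In whole skin, fewer cells of a type and less RNA per cell cannot be told apart. Sebocytes, the lipid-making cells of the sebaceous gland, were represented by 8 measured markers, of which 7 were higher on MC903 replicate 2 than on replicate 1. Their summed signals were 53575 and 60555 in Control and 52372 and 70527 in MC903, the same order of arrays as for Cyp51, Dhcr7 and Insig1. All 7 skeletal muscle markers were higher on MC903 replicate 2, with summed signals of 55895 and 34153 in Control and 11145 and 43242 in MC903. All 5 measured adipocyte markers were as well, with sums of 2567 and 2192 in Control and 2976 and 5517 in MC903. No marker of these 3 lists stayed within the level of the bacterial control probe sets on all 4 arrays.

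Suprabasal keratinocyte markers, which mark the maturing layers of the epidermis, were higher on MC903 replicate 2 than on replicate 1 for 5 of 7, with a median gap of 0.19 and summed signals of 160910 and 147143 in Control and 185009 and 209385 in MC903. Among them Flg, the gene of the barrier protein filaggrin, had signals of 7435 and 7828 in Control and 7333 and 17784 in MC903, a gap of 1.28. Melanocyte markers were higher on replicate 2 for 4 of 5, with a median gap of 0.25. Other lists had the opposite order of the MC903 arrays, mixed order or almost level values. Macrophage markers (7 of 7) and proliferation markers (5 of 5) were lower on MC903 replicate 2 than on replicate 1, by medians of -0.81 and -0.97. The 7 basal keratinocyte markers, found where the epidermis renews itself, had a gap of 0.0048 (median) and summed signals of 101967 to 105150 on the 4 arrays, so the keratinocytes that the label of skin implies were well represented. Hair follicle markers had medians of -3.86 and -3.79 against the Control mean on MC903 replicates 1 and 2, while gene by gene 2 of 9 were higher on replicate 2, with gaps from -2.19 to 1.06 and a median of -0.42. Neutrophil (3 measured), T cell (4) and wound keratinocyte (4) markers were all lower on replicate 2, and 2 of 6 fibroblast and 2 of 5 endothelial markers were higher there. As a measure of RNA quality, the 3′ to 5′ signal ratio on MC903 replicates 1 and 2 was 1.25 and 1.24 for beta actin, 0.671 and 0.654 for Gapdh, 5.24 and 5.35 for pyruvate carboxylase and 4.36 and 6.04 for the dim transferrin receptor. On the Control arrays it was 1.26 and 1.27, 0.643 and 0.638, 3.83 and 4.11, and 6.32 and 6.93, in the same order of transcripts. The transferrin receptor ratio thus differed between the MC903 arrays and the pyruvate carboxylase ratio between the groups, and the part of RNA quality in the members' values was not tested.

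The remaining enzymes of the pathway were read from a list of 15, of which 12 had a named probe set and 3 were not analysed here. With either prior limma called 0 of 12 (0% and 0.923% of all genes). An unadjusted p below 0.05 was found for 1 of 12 (6.82% of all genes, higher). Their median difference was 0.071. The groups did not overlap for 3 that were higher in MC903 (21.6% of all genes) and 2 that were lower (28.2%). Ebp, the sterol isomerase, was the gene below that unadjusted p. It had signals of 2929 and 3276 in Control and 4357 and 4187 in MC903, a difference of 0.46 ± 0.16 (SE, n = 2 per group; limma, adjusted p = 0.311). Unlike the members, its MC903 arrays were close to each other, with a gap of -0.057.

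Tm7sf2, a sterol reductase, had signals of 348 and 360 in Control and 404 and 526 in MC903, a difference of 0.37 ± 0.20 (SE, n = 2 per group; limma, adjusted p = 0.453). Ggps1, which makes the geranylgeranyl lipid used to anchor proteins rather than sterols, stood at 596 and 561 in Control and 436 and 522 in MC903, a difference of -0.27. Of the 12, 11 were higher on MC903 replicate 2 than on replicate 1, with a median gap of 0.32. Msmo1, a sterol methyl oxidase, had the largest, 0.76, with signals of 13124 and 14188 in Control and 10900 and 18478 in MC903. The mevalonate decarboxylase Mvd came next with 0.73. Lbr and Sc5d, both sterol enzymes, had gaps of 0.039 and 0.026.

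**Figure D4:**
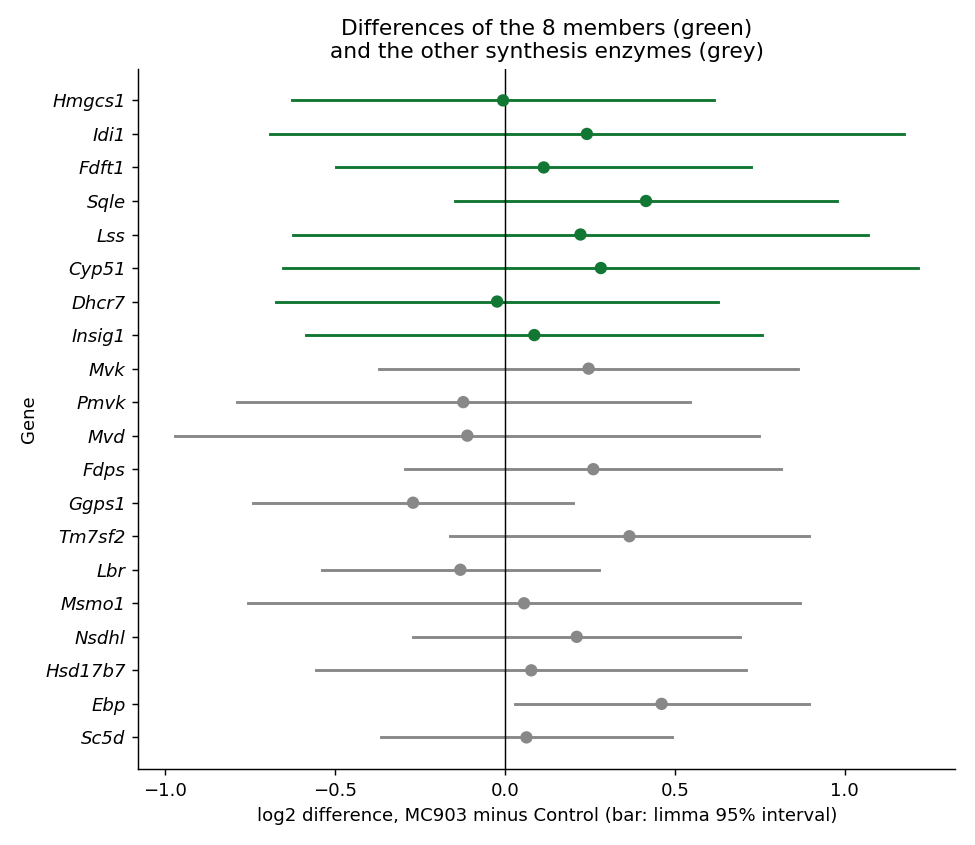
Log2 differences, MC903 minus Control (points, with limma 95% intervals as bars; 2 arrays a group), for the 8 members in green and the 12 other measured synthesis enzymes in grey. The interval spans 0 for all 8 members and for 11 of the 12 others, the exception being Ebp.

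Genes that control SREBP were measured for 6 of 6, and 3 of 6 were higher on MC903 replicate 2 than on replicate 1. Of these 6, limma called 0 with either prior (0% and 0.923% of all genes). At an unadjusted p below 0.05, 2 were lower (8.39% of all genes), and the median difference of the 6 was -0.23. The groups did not overlap for 2 that were higher in MC903 (21.6% of all genes) and 3 that were lower (28.2%). Srebf2, which encodes the SREBP that chiefly drives cholesterol synthesis, had signals of 853 and 797 in Control and 979 and 971 in MC903. Both MC903 arrays were above both Control arrays and almost level, and the difference was 0.24 ± 0.15 (SE, n = 2 per group; limma, adjusted p = 0.517). Srebf1, whose products drive mainly fatty acid synthesis, went the other way, with 2398 and 2622 in Control and 1727 and 1895 in MC903. Its groups did not overlap, and its difference was -0.47 ± 0.16 (SE, n = 2 per group; limma, adjusted p = 0.311).

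The SREBP-releasing proteases stood on the lower side too. Mbtps1 had signals of 2400 and 2574 in Control and 1878 and 1814 in MC903, a difference of -0.43 ± 0.15 (SE, n = 2 per group; limma, adjusted p = 0.321), and Mbtps2 differed by -0.39 ± 0.17 (SE, n = 2 per group; limma, adjusted p = 0.39). The escort gene Scap differed by 0.21. Insig2, the second Insig gene, stood at 3260 and 3414 in Control and 2883 and 3451 in MC903, and its groups overlapped.

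Of the uptake and transport list, 8 of 11 genes had a named probe set. With either prior limma called 0 of them (0% and 0.923% of all genes). The median difference was 0.0040, with 2 lower and 0 higher at an unadjusted p below 0.05, against 8.39% and 6.82% of all genes. For 2 genes that were higher in MC903 (21.6% of all genes) and 3 that were lower (28.2%) the groups did not overlap. Mylip, which encodes the ubiquitin ligase that sends lipoprotein receptors to degradation, had signals of 3831 and 4347 in Control and 2774 and 2300 in MC903. Both MC903 arrays were below both Control arrays, with a difference of -0.69 ± 0.19 (SE, n = 2 per group; limma, adjusted p = 0.253). Vldlr, a lipoprotein receptor and Mylip target, had signals of 1446 and 1085 in Control and 764 and 805 in MC903, a difference of -0.66 ± 0.21 (SE, n = 2 per group; limma, adjusted p = 0.282), on a probe set with the suffix x. Npc1 and Npc2, which pass cholesterol out of lysosomes, were higher on both MC903 arrays than on both Control arrays and differed by 0.35 and 0.33. Stard4, a sterol carrier and SREBP target, stood at 1725 and 1479 in Control and 1642 and 2155 in MC903.

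Among 7 measured genes of efflux and oxysterols, limma called 0 with either prior (0% and 0.923% of all genes). The groups did not overlap for 3 that were higher in MC903 (21.6% of all genes) and 1 that was lower (28.2%). Abca1 and Abcg1, the cholesterol exporters, stood on opposite sides. Abca1 had signals of 6962 and 6048 in Control and 4970 and 4911 in MC903 (difference -0.39 ± 0.16, SE, n = 2 per group; limma, adjusted p = 0.366). Abcg1 had 696 and 826 in Control and 1102 and 1053 in MC903 (difference 0.50 ± 0.17, SE, n = 2 per group; limma, adjusted p = 0.31). Neither gene's groups overlapped. Cyp7b1, an oxysterol hydroxylase, had the largest difference of the list, 1.70 ± 0.65 (SE, n = 2 per group; limma, adjusted p = 0.34), but its MC903 signals were 3637 and 1008 against 506 and 664 in Control, and without MC903 replicate 1 the difference was 0.78. The oxysterol synthase gene Ch25h, at 83.1 and 89.0 in Control and 129 and 112 in MC903, differed by 0.42.

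Sult2b1, the sulfotransferase that makes the cholesterol sulfate of the cornified layer, had signals of 1091 and 1259 in Control and 1925 and 3143 in MC903. The groups did not overlap, and the difference of 1.06 ± 0.29 (SE, n = 2 per group; limma, adjusted p = 0.257) was above that of every member, though it was not called. It had the members' order of the MC903 arrays, with 0.71 on replicate 1 and 1.41 on replicate 2.

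SREBP proteins also drive fatty acid synthesis genes, of which limma called 0 of 8 with either prior (0% and 0.923% of all genes). Their median difference was -0.11, and 7 of 8 were higher on MC903 replicate 2 than on replicate 1. Elovl6, a fatty acid elongase, had signals of 15775 and 15858 in Control and 8450 and 20701 in MC903, a gap of 1.29 between the MC903 arrays against 0.0076 between the Control arrays. Fasn, the fatty acid synthase, had 2938 and 3142 in Control and 1841 and 3334 in MC903, and Acss2, which makes acetyl-CoA from acetate, 1122 and 1248 in Control and 827 and 1425 in MC903. In each of these the MC903 arrays were the lowest and the highest. Scd1, Scd2 and Acaca had gaps of 0.10, -0.046 and 0.036.

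**Figure D5:**
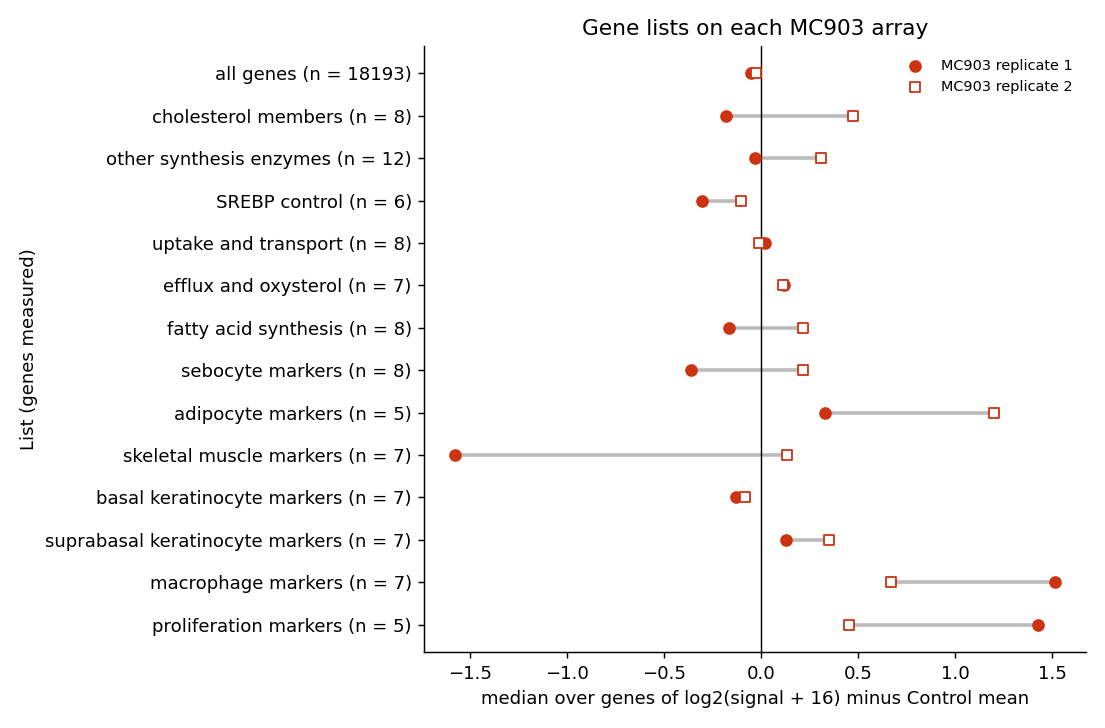
Median over the genes of each list of log2(signal + 16) minus the Control mean (x axis), for MC903 replicate 1 (filled circles) and replicate 2 (open squares), with the number of genes measured. The members go from -0.18 to 0.47 between the arrays, the sebocyte markers from -0.36 to 0.22 and the muscle markers from -1.58 to 0.13, while all genes stay at -0.054 and -0.025.

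As a check of the treatment itself, Cyp24a1, the vitamin D inactivating enzyme and a direct vitamin D target, had signals of 12.7 and 40.8 in Control and 17296 and 10385 in MC903. Its lower Control signal lies within the level of the bacterial control probe sets. Its MC903 arrays thus stood in the opposite order to those of the members, and limma did not call it with the constant prior (adjusted p = 0.0765) but did with the prior that follows the signal (adjusted p = 0.00378).

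The 5 other genes whose centred profile over the 4 arrays lay nearest to the mean profile of the members were Ogdh, Plek2, Evpl, Egr3 and Hopx, among 3414 candidates at least as bright as the dimmest member. Their root-mean-square distances were 0.035 to 0.051 log2 units, while those of the members themselves reached 0.15, and 180 candidates lay nearer than the farthest member. Evpl, which encodes the cornified envelope protein envoplakin, had signals of 1351 and 1494 in Control and 1328 and 1885 in MC903. With 4 arrays such likeness is a description only.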

How the data were processed

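Per the labels' protocols, 200 ng of total RNA from each skin sample was hybridised to a 3′ array. Intensity values of 45101 probe sets on a linear scale were deposited for the 4 arrays. The software behind them was not named in the sources used here. In these values the mean without the top and bottom 2% was 500.0 on each array, so the arrays had been scaled, and array medians were 90.2 to 109.2. The number of arrays limits the precision.

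Probe sets were named from the platform annotation, with symbols updated by Entrez ID to RefSeq (GRCm38.p6): 34945 had 1 symbol, 932 several, and 9160 are unnamed here. For each of 18193 genes the probe set whose log2 values averaged highest was used. Signals were taken as log2(signal + 16), which understates differences of dim genes, and fitted over all genes with limma 3.58.1 in R 4.3.3 (lmFit, eBayes, 2 residual and 2.32 prior degrees of freedom, Benjamini-Hochberg adjustment, threshold 0.05). The code was tested on simulated data. The members, lists and tests were chosen with earlier results of these data known. All members were named, with the largest differences of each pathway list, a few fixed genes of sterol control and the 5 nearest profiles. Alternatives covered normalization, added constant, filters, probe sets, priors, replicate block and left-out arrays. Some genes are not reported here.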

Additional observations from a re-analysis of the deposited data

How the results depend on the processing

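In all 18 alternative settings limma called 0 of the 8 members, and their smallest adjusted p was 0.256. Of 112 member values in the 14 settings that keep every array, 106 kept their sign. Hmgcs1 (0.076) and Dhcr7 (0.058) changed sign with median centring, and Fdft1 (-0.11) and Lss (-0.13) with the mean over a gene's probe sets. The Fdft1 mean took in probe sets with signals of 7.82 to 74.3 and 7.55 to 65.5, while its brighter ones gave 0.11 and 0.28. Lss also changed sign (-0.54) with probe sets lacking the suffix x or s, under both priors, a setting chosen after seeing the data. With 1 array left out, 9 of 32 values changed sign, and the cause was not tested beyond the arrays' own values. The ranges were -0.26 to 0.25 for Hmgcs1, -0.21 to 0.69 for Idi1, -0.11 to 0.34 for Fdft1, 0.20 to 0.63 for Sqle, -0.13 to 0.58 for Lss, -0.165 to 0.73 for Cyp51, -0.29 to 0.24 for Dhcr7 and -0.20 to 0.37 for Insig1. The median of the members ran from -0.18 (without MC903 replicate 2) to 0.47 (without MC903 replicate 1). In the settings that keep every array, the groups did not overlap for 1 of 8 members, against 49.7% of all genes as reported. With an array left out such counts are not read, since a lone array overlaps less easily.

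The number of genes called in all, 0 as reported, was 3 with median centring, 70 with an added constant of 64, 36 and 190 without the dimmest 25% and 50% of genes, 12 with the mean over probe sets, 168 with the prior that follows the signal (156 with probe sets lacking the suffix x or s) and 5 with probe sets chosen by mean signal, the last 2 settings added after seeing the data. Of the other pathway genes, 1, Cyp24a1, was called in 6 of these. The fit with a replicate block gave 0 calls in all, 0 among the members and a member median of 0.17, and the deviations of same-numbered arrays had a correlation of -0.061 over genes, so the numbers were not taken to pair the samples. Signals of the members were well above the bacterial control probe sets on every array.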
